A study of Mus musculus with 4 samples.

Results

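The type I interferon-stimulated genes examined here are 45 genes that cells switch on when interferon-alpha or interferon-beta reaches them. They were taken by symbol from a list drawn up for the purpose, and 43 of them were measured among the 32285 genes of the data. Mx1 and Mx2 were not analysed here. The cells were leukocytes, sorted on the pan-leukocyte surface protein CD45, from left lungs of B6 mice transplanted into B6 recipients (a syngeneic graft, matched in strain). Every graft was kept for 60 min at 4 °C and for 45 min at 28 °C before implantation and was collected 2 h after engraftment, so all 4 groups had the same ischaemia and surgery and none was an untransplanted lung. Resolvin D1 (RvD1), a lipid derived from the omega-3 fatty acid docosahexaenoic acid and known for its part in the resolution of inflammation, or vehicle was given intravenously just before transplantation, RvD1 as 200 ng in 200 µL of 1% ethanol. The protocol names the recipient mouse as treated, while the design text speaks of treated grafts. Donor cells (carried over in the graft) and recipient cells (arrived after engraftment) were separate libraries. Each group was 1 library from 2 pooled lungs. Below, a run of 4 values is always in the order vehicle donor, RvD1 donor, vehicle recipient, then RvD1 recipient. Ages, sex and the marker that told donor from recipient cells are not given in the sources used here.

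Type I interferons bind the receptor Ifnar1/Ifnar2, whose kinases Jak1 and Tyk2 phosphorylate Stat2. Stat2 and Irf9 are parts of the factor ISGF3, which binds interferon-stimulated response elements near the start of its target genes. The products include RNA and DNA sensors, enzymes that attack viral RNA or its building blocks, membrane proteins that hold back virus entry or release, and feedback regulators such as Usp18. In the lung, neutrophils and monocytes are among the first cells to enter injured tissue, and both can carry this programme.

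Because each group was 1 library, no difference could be set against a spread between replicates, and no test was run. Levels are in CPM, that is UMIs (unique molecular identifiers, each standing for 1 captured transcript molecule) of a gene scaled to a total of 1000000 UMIs for a cell class in a library. Intervals are exact 95% intervals that cover counting error only. Reads were counted with Cell Ranger 7.0.1 for RvD1 and with Cell Ranger 6.1.1 for vehicle. In every RvD1 ratio below the effect of the treatment and that of the counting software therefore cannot be told apart, while recipient and donor cells were always compared under the same software. After filtering, 5527, 5024, 5829 and 7345 cells remained, with medians of 7905, 6464, 5830 and 5386 UMIs per cell, and any pair of libraries shared 4 to 15 barcodes. The class with the most cells was neutrophils (1419, 1899, 3340 and 3038 cells). Classical monocytes (593, 785, 174 and 293) and nonclassical monocytes (503, 235, 187 and 317) were compared in all 4 libraries, as were T cells (976, 836, 791 and 1807), B cells (452, 264, 880 and 946) and NK cells (783, 423, 355 and 559). Dendritic cells reached the minimum of 100 cells in the donor libraries alone.

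The members fell into a few families that lie side by side in the genome (GRCm38, mm10). The 5 Ifit genes, whose proteins bind RNA ends that lack the host's cap methylation, lie at chr19:34550694-34650009. The 4 Schlafen genes Slfn1, Slfn4, Slfn5 and Slfn8 lie at chr11:82951349-83190216. Parp14, Parp9 and Dtx3l, which encode ADP-ribosylation enzymes and the ubiquitin ligase partner of Parp9, lie at chr16:35832874-35972605. Parp9 starts at 35938470 and Dtx3l ends at 35939151, so the 2 genes overlap on opposite strands and reads there are uncertain. Ifit3 and Ifit3b are near copies of each other, and Ifi204 and the Schlafen genes have close relatives, so the split of reads within these families is uncertain as well. Summed over all libraries the members ranged from 139 UMIs (Ifi44) and 408 UMIs (Phf11d) to 154808 UMIs (Ifitm3).

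The promoters were read for 33 members, from 250 bases before to 50 bases after the transcription start, in RefSeq sequence of GRCm38.p6. The pattern GAAANNGAAA, the core of an interferon-stimulated response element, was searched on both strands (TTTCNNTTTC on the other strand), and matches could overlap. It was present in 17 of these 33 members (51.5%), against 1079 of 27025 genes (3.99%). Counted by promoter, 20 of 40 member promoters (50%) and 3.44% of all 32851 promoters of that length held it. Stretches are shown for 6 members to which the results below return, in lower case with each match in capitals and 5′ to 3′ on the gene's strand.
Isg15: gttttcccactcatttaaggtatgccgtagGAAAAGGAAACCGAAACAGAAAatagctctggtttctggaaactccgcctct
Ifit1: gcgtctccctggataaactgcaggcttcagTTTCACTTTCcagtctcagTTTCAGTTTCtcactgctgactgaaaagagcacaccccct
Ifit3: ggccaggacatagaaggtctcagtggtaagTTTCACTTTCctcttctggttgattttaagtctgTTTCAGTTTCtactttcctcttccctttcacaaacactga
Rsad2: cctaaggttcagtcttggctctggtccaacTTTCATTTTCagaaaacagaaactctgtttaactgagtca
Slfn8: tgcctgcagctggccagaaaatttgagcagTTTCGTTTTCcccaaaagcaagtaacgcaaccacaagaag
Stat2: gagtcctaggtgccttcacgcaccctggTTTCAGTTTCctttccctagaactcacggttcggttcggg
These stretches lie at chr4:156200845-156200926 (minus strand, Isg15), chr19:34640755-34640843 (plus, Ifit1), chr19:34583343-34583446 (plus, Ifit3), chr12:26456533-26456602 (minus, Rsad2), chr11:83020819-83020888 (minus, Slfn8) and chr10:128270248-128270315 (plus, Stat2). All of them end before the start site. Isg15 had 3 overlapping matches, beginning 78, 72 and 66 bases before the start, which form the long run of capitals. Ifit1 had 2 matches, at 104 and 85 bases before the start, and Ifit3 had 2, at 156 and 122. Rsad2, Slfn8 and Stat2 had 1 each, at 120, 136 and 222 bases before it. The other members with a match included Bst2, Slfn5 and Trim30a, and those without one included Irf7, Irf9, Oasl1, Oasl2 and Slfn4. A match is a description of these letters and was not linked to binding in these cells.

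Each class held a different selection of the genes at high level. Neutrophils had the highest mean level of the 4 libraries for 18 members, classical monocytes for 14, T cells for 9, and B cells and nonclassical monocytes for 1 each (Ly6e and Samhd1). Isg15, a ubiquitin-like protein that is joined to other proteins, stood at 209, 232, 205 and 347 CPM in neutrophils, and at 77.3, 45.5, 104 and 79.4 in classical monocytes, the next class. Slfn4, a Schlafen gene of myeloid cells, stood at 408, 395, 305 and 342 in neutrophils, and its mean there was 363 against 83.4 in nonclassical monocytes. Rsad2 encodes viperin, which turns the nucleotide CTP into a chain terminator of viral RNA synthesis. It stood at 189, 93.2, 127 and 74.4 in neutrophils and had a mean of 31.3 in nonclassical monocytes. The lowest neutrophil library was above the highest library of the next class for Isg15, Slfn4 and Rsad2, and also for Isg20, Oas3, Oasl1, Oasl2 and Slfn1.

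Several abundant members had their highest level in classical monocytes. Ifitm3, which blocks fusion of virus with the endosome, stood at 3236, 3138, 4104 and 3859 CPM there, with a mean of 1520 in nonclassical monocytes. Ifi27l2a, a small mitochondrial protein, stood at 1215, 1202, 1524 and 1568, with a mean of 328 in T cells, the next class. Ifi204, a p200-family DNA sensor, stood at 418, 247, 477 and 347, and Bst2, which tethers virus particles to the cell, at 126, 117, 171 and 138. In plasmacytoid dendritic cells, of which there were only 39 and 30 in the donor libraries, Bst2 reached 2606 and 3218. T cells led for 2 IFIT genes by a clear gap. Ifit2 had a mean of 14.99 there against 4.46 in NK cells, and Ifit1bl1 10.3 against 2.66 in B cells. For 24 genes the libraries of the 2 leading classes overlapped. They included Ifit1 (means of 30.5 in T cells and 24.9 in neutrophils), Stat2 (36.7 in T cells, 35.7 in classical monocytes) and Ifih1, the RNA sensor MDA5 (45.4 in neutrophils, 40.9 in nonclassical monocytes). Isg15 was low in B cells, at 7.63, 11.9, 8.35 and 10.2.

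**Figure D1:**
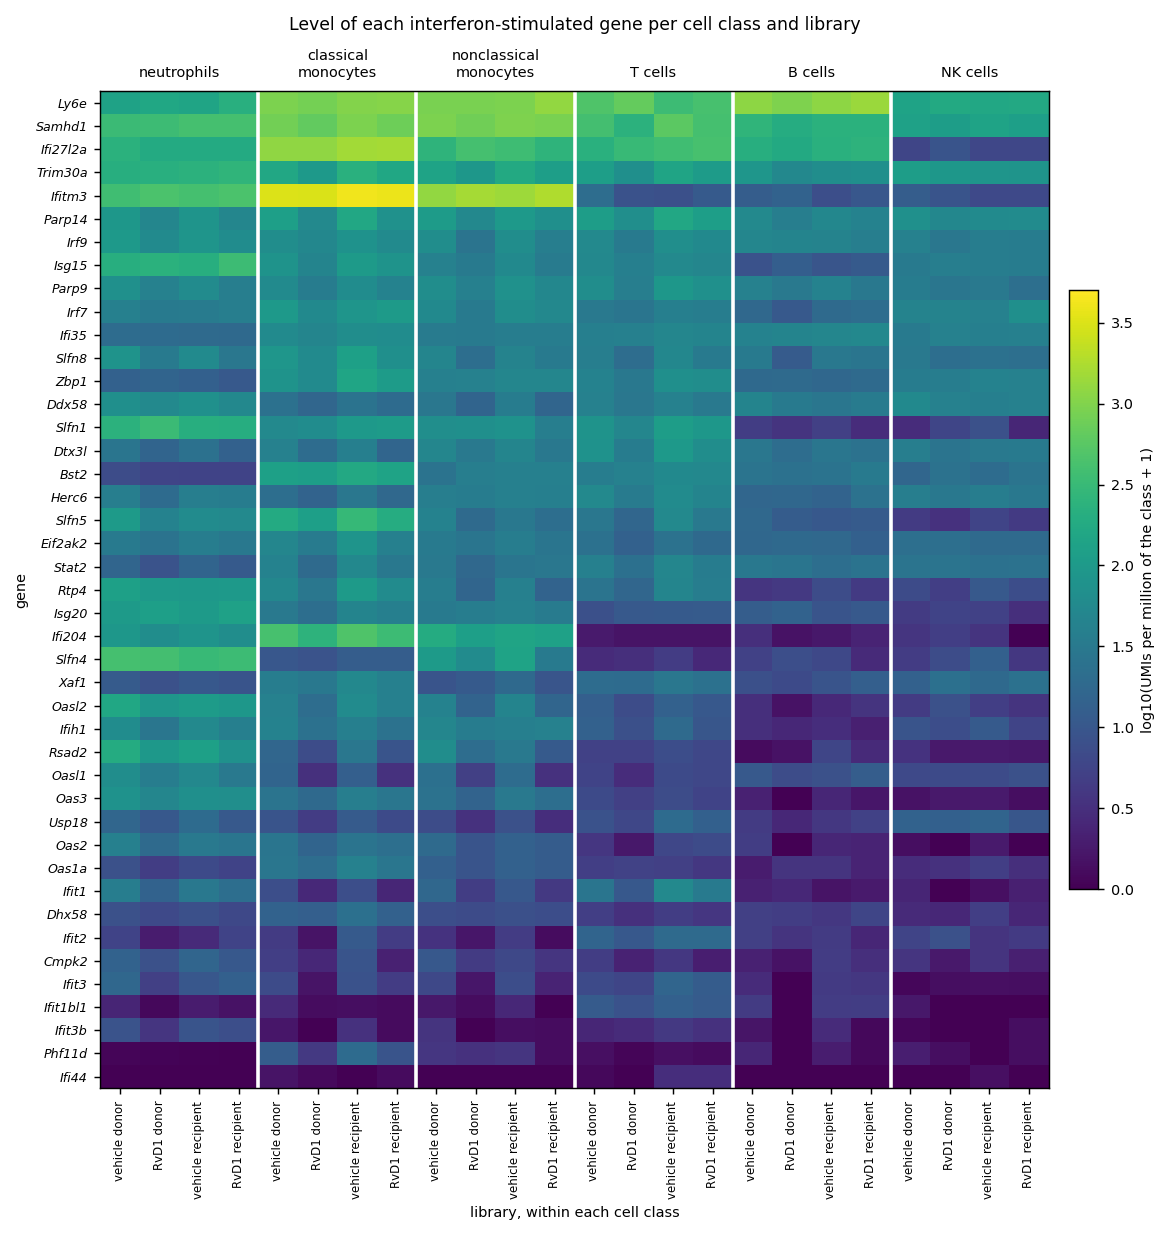
Level of 43 interferon-stimulated genes (rows) in 6 cell classes and 4 libraries (columns), as log10 of CPM plus 1. Ly6e and Samhd1 were high in most classes, Ifi27l2a in all but NK cells, and Ifitm3 in neutrophils and both kinds of monocyte. Isg15, Slfn4 and Rsad2 were brightest in neutrophils.

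To ask how many cells carried the programme, each cell was drawn down to 2000 UMIs and called responding when at least 3 of 15 inducible core genes had a UMI. The core is Ifit1, Ifit2, Ifit3 with Ifit3b, Isg15, Rsad2, Oasl1, Oasl2, Usp18, Cmpk2, Rtp4, Zbp1, Irf7, Ifi44 and Herc6, with Mx1 as the unmeasured 15th. Among neutrophils 160 of 1398 cells responded in vehicle donor (11.4%, interval 9.82 to 13.2), 145 of 1850 in RvD1 donor (7.84%, 6.65 to 9.16), 317 of 3329 in vehicle recipient (9.52%, 8.55 to 10.6) and 236 of 2956 in RvD1 recipient (7.98%, 7.03 to 9.02). Without drawing down the shares were 26.4%, 16.6%, 20.5% and 16.5%. Both RvD1 libraries thus had a lower share than their vehicle library, by -3.61 percentage points (-5.75 to -1.52) in donor cells and by -1.54 points (-2.95 to -0.115) in recipient cells. Between 64 and 141 neutrophils per library sat exactly at 3 core genes and between 168 and 311 just below, at 2.

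Classical monocytes responded in 5.81%, 2.57%, 9.83% and 3.46% of cells, and 37.9%, 31.7%, 56.3% and 34.5% without drawing down. The RvD1 difference was -3.24 points (-5.67 to -1.02) in donor cells and -6.37 points (-12.1 to -1.48) in recipient cells, the latter from 17 of 173 and 10 of 289 cells. In nonclassical monocytes 20 of 492 cells responded in vehicle donor (4.07%) and 7 of 185 in vehicle recipient (3.78%), against 1 of 232 (0.431%) and 1 of 309 (0.324%) in the RvD1 libraries. T cells responded in 2.80%, 0.964%, 6.85% and 3.72%. Their share was lower with RvD1 in donor cells (-1.83 points, -3.19 to -0.508) and in recipient cells (-3.13 points, -5.29 to -1.20), and higher in recipient than donor cells with vehicle (4.06 points, 1.98 to 6.27) and with RvD1 (2.76 points, 1.52 to 3.88). At 1000 UMIs per cell the last 3 of these differences had the same sign but were smaller, at -0.43, 0.51 and 0.74 points.

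B cells, which held the fewest core UMIs per cell of the 6 classes (0.148 to 0.203), and NK cells had few such calls at the same depth. Whether any of them truly responded was not tested, so their shares are not a rate of false calls for another class. B cells responded in 3 of 442, 0 of 257, 1 of 867 and 7 of 925 cells. The 0 of 257 allows a share of up to 1.17% by the floor of 3 counts, and up to 1.43% by the exact interval. NK cells responded in 7 of 774, 1 of 418, 2 of 353 and 2 of 535 cells, at most 0.904%. The shares of the RvD1 libraries in nonclassical monocytes, and of RvD1 donor T cells, were at or near those of B and NK cells. The shares of neutrophils and classical monocytes lay above them in every library. Median depth before drawing down was 5261, 5038, 5344 and 4875 UMIs per neutrophil and 6569, 6125, 5535 and 4603 per B cell. Cells under 2000 UMIs were left out, at most 82 neutrophils and at most 24 cells of any other compared class in a library.

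**Figure D2:**
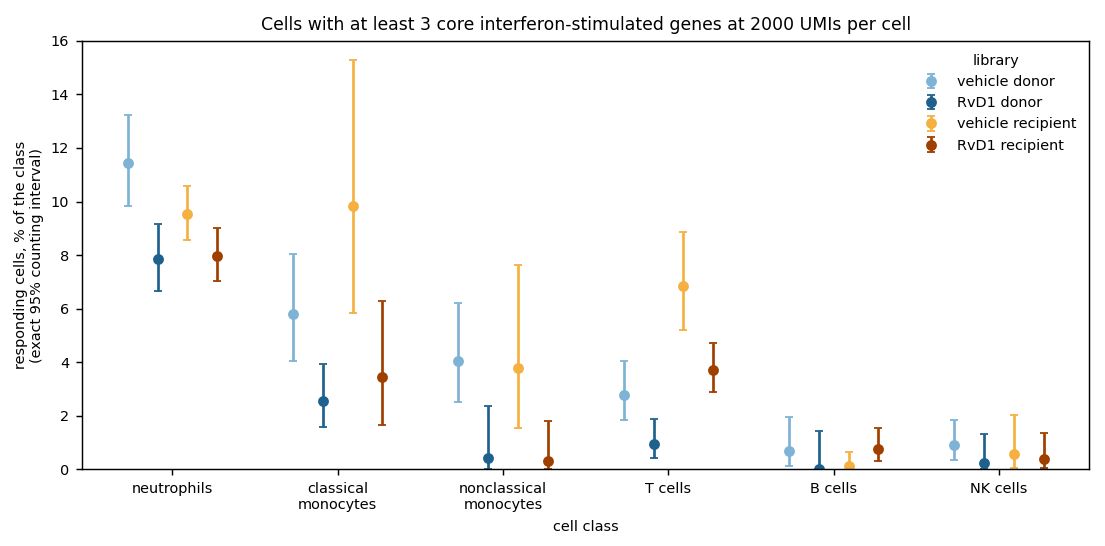
Share of cells with at least 3 core interferon-stimulated genes at 2000 UMIs per cell, for 6 classes and 4 libraries, with exact 95% binomial intervals. Neutrophils lay between 7.84% and 11.4%, vehicle recipient classical monocytes at 9.83%, and each RvD1 point lay below the vehicle point of its origin in neutrophils, in T cells and in both kinds of monocyte.

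A minority of neutrophils held most of the core transcripts. The same core UMIs called a cell responding, so a higher level per cell follows from the call and the shares below are a description. The responding cells carried 60.7%, 52.0%, 59.0% and 51.6% of all core UMIs of neutrophils, at 10.2, 8.74, 9.48 and 10.3 core UMIs per cell against 0.855, 0.686, 0.695 and 0.838 in the others. In classical monocytes the responding cells held 43.8%, 22.3%, 45.0% and 22.7% of core UMIs, and in T cells 25.6%, 9.48%, 40.5% and 25.6%.

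The genes outside the core were not used to call a cell, so their level in responding cells is a separate readout. In neutrophils every one of them that could be described was higher in the responding cells of each library. Slfn5 was 11.1 to 14.9 times as high across the 4 libraries, Xaf1 (a pro-apoptotic partner of the inhibitor XIAP) 11.3 to 15.7 times, and Ifih1 8.77 to 12.3 times. Dtx3l was 6.33 to 10.9 times and Slfn8 6.81 to 10.0 times as high. These 5 genes were among those with the largest ratios between responding and other neutrophils. The ratios compare 2 pools of cells, and no correlation from cell to cell was computed. Xaf1 rests on few molecules, with 16 UMIs in responding and 12 in other cells of RvD1 donor. Slfn4 was 4.34 to 5.89 times as high, Ifitm3 1.99 to 3.04 times, Ly6e, a membrane protein that hinders virus fusion, 1.68 to 2.16 times, and Samhd1, which breaks down deoxynucleotides, 1.40 to 1.79 times. The ratio of Ifi27l2a, another abundant member, varied more, from 2.20 to 4.999 times. In T cells Slfn5 was 5.46 to 8.90 times as high, while Ly6e was 0.737 to 1.12 times.

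**Figure D3:**
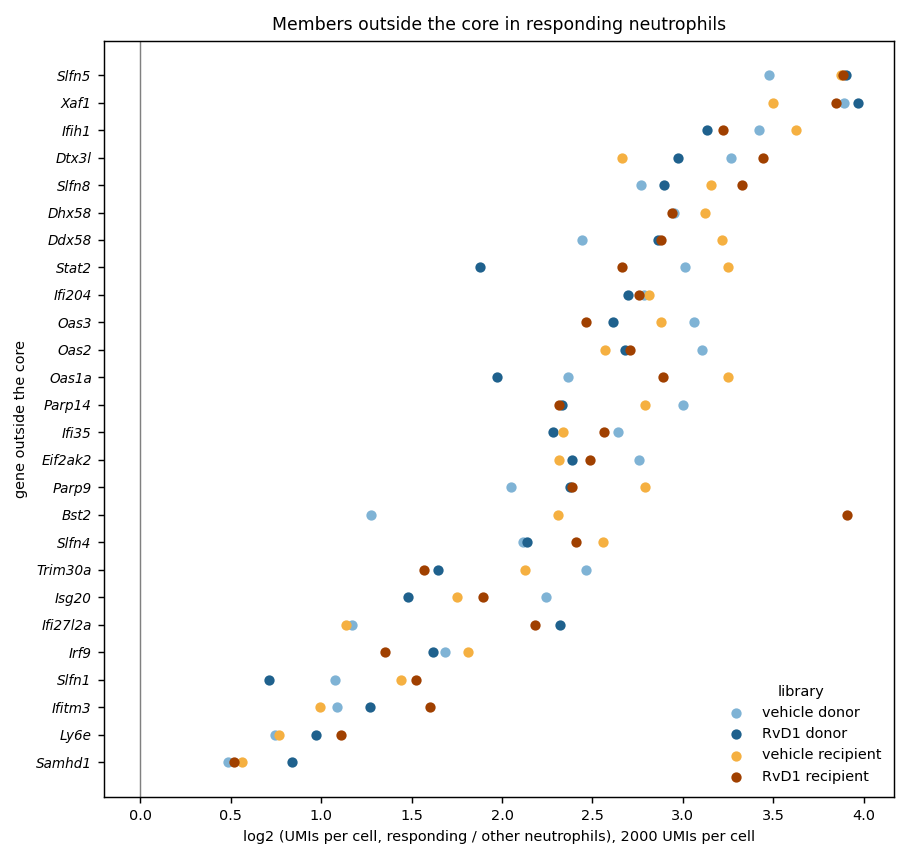
Genes outside the core in responding against other neutrophils, as log2 of the ratio of UMIs per cell at 2000 UMIs, 1 point per library where it could be described. All points lie above 0, from Slfn5 and Xaf1 (over 11-fold in each library) to Samhd1 (1.40 to 1.79 times).

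RvD1 was compared with vehicle separately in donor and in recipient cells, which are different libraries. A gene was described in a class when it had at least 100 UMIs over both libraries of the comparison, and counted when it was at least 1.5-fold lower, or higher, in both origins. In neutrophils 8 of 36 members (22.2%) were lower in both and none was higher, where 9.31% of 6566 genes were lower and 4.54% higher. Rsad2 (189 to 93.2 in donor cells, 127 to 74.4 in recipient cells) had log2 ratios of -1.02 (-1.14 to -0.90) and -0.78 (-0.88 to -0.67). Slfn8 stood at 79.2, 31.3, 57.4 and 28.4 CPM, log2 ratios of -1.34 (-1.54 to -1.14) and -1.02 (-1.18 to -0.85). Both RvD1 libraries lay below both vehicle libraries for these 2 genes, and the same held for the other 6. All 8 were picked for being lower in both origins, so such an order, here and in the classes below, only describes the genes picked.

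Usp18, which strips Isg15 from proteins and damps the receptor, stood at 15.6, 9.497, 18.5 and 9.92 (-0.72, -1.12 to -0.33, and -0.90, -1.18 to -0.62). Oasl1, a relative of the 2′-5′-oligoadenylate synthetases that restrains Irf7 translation, stood at 63.6, 36.1, 52.0 and 30.4 (-0.82 and -0.78). The ADP-ribosylation group was lower throughout. Parp14 stood at 90.6, 49.7, 81.1 and 49.3 (-0.87 and -0.72), Dtx3l at 26.5, 14.4, 23.4 and 13.01 (-0.88 and -0.85), and Parp9 at 71.1, 41.5, 59.6 and 37.7 (-0.78 and -0.66). Cmpk2, a mitochondrial nucleotide kinase next to Rsad2 on chromosome 12, was just inside the 1.5-fold limit (-0.93 and -0.64), and Stat2 just outside it (-0.97 and -0.49).

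Other neutrophil members went another way. Isg15 was 232 against 209 in donor cells (0.15, 0.06 to 0.24) and 347 against 205 in recipient cells (0.76, 0.70 to 0.82). Ifit2 (1.34), Isg15 and Ly6e (0.59) were the members at least 1.5-fold higher with RvD1 in recipient neutrophils, and none was in donor neutrophils. These were 3 of 40 and 0 of 36 members, where 935 of 7705 and 625 of 6594 genes were higher. Ifit2 rests on few molecules: 1 cell held 41.2% of its UMIs in the RvD1 recipient library. Ifit3 stood at 16.2, 3.999, 8.995 and 12.6, lower with RvD1 in donor cells (-2.02, -2.57 to -1.502) and higher in recipient cells (0.49, 0.18 to 0.79). Irf7, which amplifies interferon production, stood at 40.2, 31.4, 33.5 and 37.0 (-0.36 and 0.14). Samhd1 stood at 330, 348, 405 and 401, Slfn4 at 408, 395, 305 and 342, and Ifitm3 at 365, 446, 409 and 450, all within 0.29 log2 units of vehicle in both origins. Within the list the median log2 ratio was -0.60 in donor cells (0.005 over all genes) and -0.25 in recipient cells (0.12 over all genes).

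The make-up of neutrophils differed between RvD1 and vehicle libraries, where treatment and counting software cannot be told apart. A neutrophil cluster held 636, 89, 921 and 21 cells. Its leading genes included Enthd1, Creb5, Fnip2 and Hcar2, beside several genes with only a provisional name. Without it 10 of 35 members were lower in both origins and none higher, where 6.36% of all genes were lower and 2.86% higher, and the medians were -0.77 and -0.38 (-0.08 and 0.07 over all genes). Rsad2 was then at -1.56 and -0.99, while Isg15 turned to -0.20 in donor cells and stayed at 0.64 in recipient cells.

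In classical monocytes 8 of 32 members (25%) were lower with RvD1 in both origins and none was higher, where 2.7% of all genes were lower and 1.04% higher. Rsad2 stood at 15.7, 6.29, 28.4 and 8.23 (-1.32, -1.74 to -0.92, and -1.79, -2.47 to -1.14), and 1 cell held 32.1% of its UMIs in RvD1 donor. Parp14 stood at 122, 54.2, 165 and 72.3 (-1.17, -1.31 to -1.03, and -1.19, -1.43 to -0.96). Dtx3l stood at 41.4, 19.2, 38.6 and 14.99 (-1.11 and -1.36). For these 3 genes RvD1 was lower by over 1 log2 unit in both origins, and the groups did not overlap. With a minimum of 200 UMIs per gene in place of 100, 5 of 23 members were counted, where 2.42% of all genes were lower.

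The transcription factor Stat2, part of ISGF3, stood at 42.1, 18.2, 52.8 and 29.7 in classical monocytes (-1.21, -1.45 to -0.97, and -0.83, -1.22 to -0.45). Of the RNA sensors, Ifih1 stood at 42.4, 23.0, 38.6 and 24.1 (-0.88 and -0.68). Rtp4, a chaperone of receptors, stood at 51.0, 27.9, 102 and 60.6 (-0.87 and -0.75), so that RvD1 recipient cells were above vehicle donor cells. Oasl2 (-1.06 and -0.61) and Slfn8 (-0.59 and -0.85) completed the 8, and Slfn5 (-0.58 and -0.64) was just outside. In all 28 of the 32 members were below 0 in both origins, with medians of -0.58 and -0.47 against -0.03 and -0.05 over all genes. Irf7 was among the 4 that were not, at 95.5, 56.3, 83.9 and 103 (-0.76 in donor, 0.29 in recipient cells). How many of all genes were below 0 in both origins is not given, for this or later counts of this kind. Ifitm3 (-0.05 and -0.09) and Ly6e (923, 846, 1030 and 1059) differed little, and Samhd1 (819, 648, 924 and 763) was lower by less than 1.5-fold. The summed neutrophil markers in these cells stood at 356, 1186, 1666 and 752 CPM, with 9 or 10 of 10 markers present in each library, so they were higher with RvD1 in donor cells and lower in recipient cells. Their part in the result was not tested.

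In nonclassical monocytes 8 of 29 members (27.6%) were lower in both origins and none was higher, where 5.08% of all genes were lower and 2.06% higher. Rsad2 stood at 64.7, 19.7, 30.6 and 10.2 (-1.72, -2.13 to -1.32, and -1.59, -2.24 to -0.96). Oasl2 stood at 42.5, 14.3, 45.4 and 14.96 (-1.57 and -1.60) and Rtp4 at 35.5, 14.9, 39.6 and 14.3 (-1.25 and -1.47). In each case both RvD1 libraries were below both vehicle libraries, by over 1 log2 unit within each origin. With a minimum of 200 UMIs, 4 of 20 members were counted, where 5.31% of all genes were lower. Ddx58, the RNA sensor RIG-I, stood at 28.4, 14.6, 35.3 and 14.96 (-0.96 and -1.24). Irf9, the DNA-binding part of ISGF3, stood at 64.1, 25.8, 64.0 and 37.1 (-1.31, -1.68 to -0.96, and -0.79, -1.15 to -0.43). Dtx3l, Slfn4 and Trim30a made up the 8, with Trim30a just inside the limit (-0.60 and -0.61) and Parp9 just outside (-0.66 and -0.57). Ifi27l2a (256, 412, 353 and 252) was higher with RvD1 in donor cells (0.69) and lower in recipient cells (-0.49). Ifitm3 (1250, 1587, 1450 and 1793) was higher in both (0.34 and 0.31), by less than 1.5-fold. Among the other abundant members Ly6e stood at 899, 913, 927 and 1249 and Samhd1 at 929, 795, 971 and 893, and the nuclease gene Isg20 at 32.5, 36.0, 41.9 and 33.3.

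Neutrophil transcripts were unequal in nonclassical monocytes, at 10358, 13480, 31890 and 7455 CPM over 10 of 10 markers. Slfn4, a neutrophil-rich member, stood at 102, 59.8, 139 and 33.0 there (-0.77 and -2.08). It was highest and lowest in the same recipient libraries as the neutrophil marker sum, whereas in donor cells Slfn4 was lower and the marker sum higher with RvD1. The part of these transcripts in the results was not tested. A cluster rich in S100a8 and S100a9 (21364 against 492.6 CPM in the other) held 256, 79, 101 and 60 of the cells. Without it vehicle recipient kept under 100 cells, so a value was left for donor cells alone. There the median was -0.40, against -0.66 for all nonclassical monocytes, and Irf9 was at -1.38.

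In T cells 4 of 30 members (13.3%) were lower in both origins and none was higher, where 1.96% of all genes were lower and 1.1% higher. Ifit1 stood at 26.7, 9.59, 54.5 and 31.4 (-1.48, -1.88 to -1.08, and -0.80, -0.996 to -0.60). Slfn5 stood at 28.2, 15.4, 54.4 and 29.9 (-0.88 and -0.86). For both genes RvD1 recipient cells were above vehicle donor cells, so the treatment groups overlapped and the order held only within an origin. Ifih1 stood at 13.1, 7.05, 17.9 and 8.79 (-0.90, -1.40 to -0.41, and -1.03, -1.40 to -0.67). Slfn8 stood at 37.7, 19.7, 49.8 and 32.7 (-0.93 and -0.61), just inside the limit, with Dtx3l just outside (-1.09 and -0.58). Of the 30 members 23 were below 0 in both origins. The medians were -0.70 and -0.36, against -0.12 and -0.08 over all genes. The mixture of T cell clusters also differed between the libraries, as given below, and its part here was not tested.

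Abundant T cell members differed in direction. Parp14 (113, 67.0, 163 and 117) and Samhd1 (394, 241, 586 and 408) were lower with RvD1, whereas Ly6e (475, 671, 344 and 423) and Ifi27l2a (219, 309, 371 and 413) were higher. Bst2 stood at 35.5, 41.6, 55.9 and 53.0. Ifitm3 stood at 19.8, 7.48, 6.93 and 10.1 in T cells, and a single cell held 57.7% of its UMIs in vehicle donor. Over all genes RvD1 ratios in T cells were lower for genes with more intron sequence, with a Spearman correlation of -0.40 in donor and -0.32 in recipient cells. This correlation is a description over 9032 and 9028 genes, which are not replicates. The members had a median of 8674 intron bases in donor T cells against 21005 for all genes, and the part of intron length in the result was not tested. With the trend on intron length subtracted, no count of members changed by more than 1.5 times in any class.

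**Figure D4:**
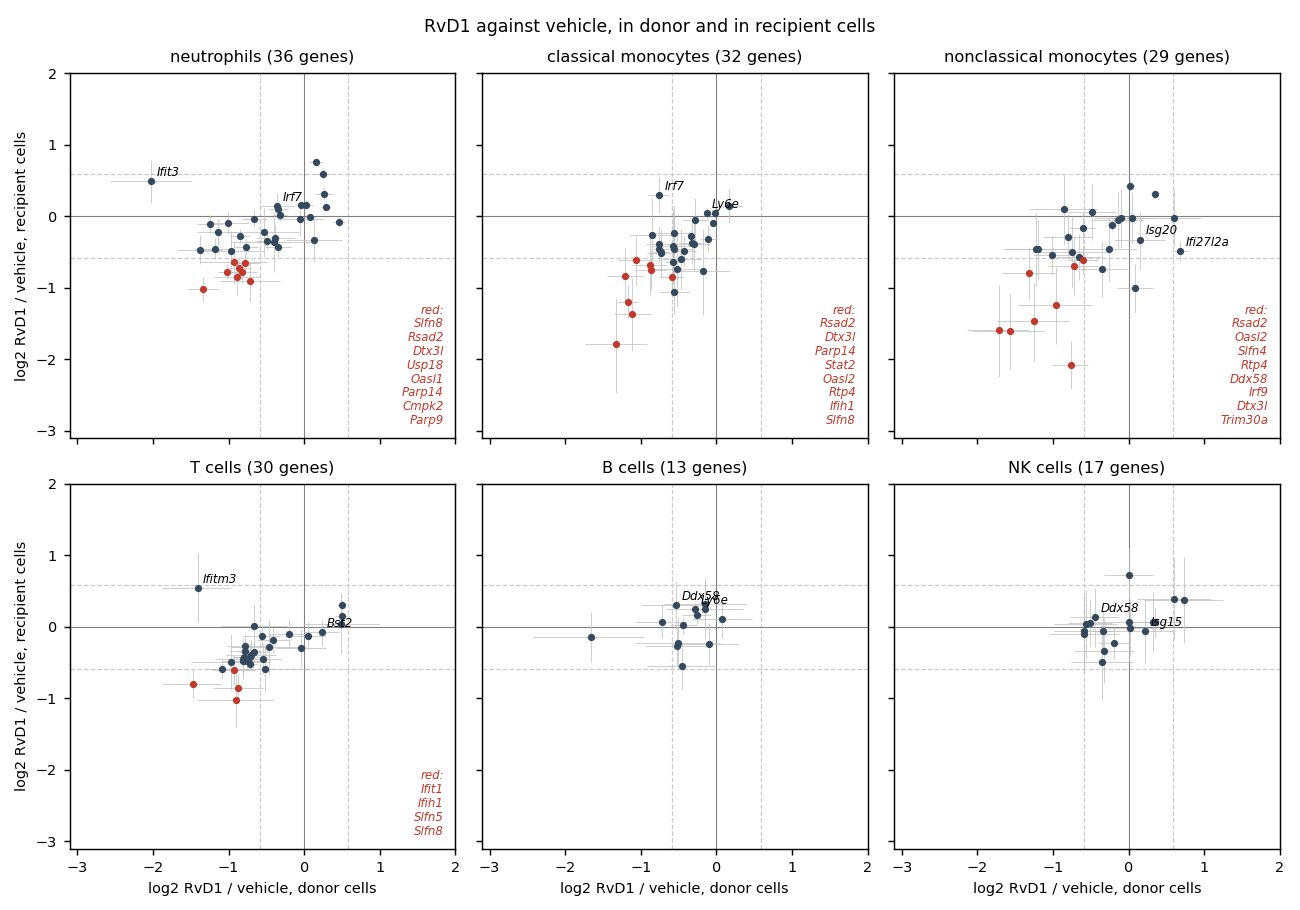
Log2 ratio of RvD1 to vehicle for each described member, in donor cells (x) and recipient cells (y), with exact 95% counting intervals, dashed lines at 1.5-fold, and members past 1.5-fold in both in red. The red genes are all in the lower left, 8 in neutrophils, 8 in classical monocytes, 8 in nonclassical monocytes and 4 in T cells, and none in B or NK cells.

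No member passed the 1.5-fold limit in both origins in B or NK cells. In B cells 0 of 13 members were 1.5-fold lower in both origins and 0 higher, where 1.21% of all genes were lower and 0.62% higher. In NK cells both counts were 0 of 17, where 1.38% were lower and 0.941% higher. Medians in B cells were -0.44 in donor cells, where 12 of 13 members were below 0 (-0.23 over all genes), and 0.11 in recipient cells, and in NK cells -0.10 and 0.03. Ddx58 in NK cells stood at 56.4, 41.4, 38.0 and 41.6, and Isg15 at 31.6, 36.7, 35.8 and 34.3. The abundant NK cell members Ly6e (141, 179, 165 and 172), Samhd1 (129, 113, 141 and 121), Trim30a (115, 91.2, 85.3 and 81.7) and Parp14 (72.0, 50.7, 57.6 and 59.8) held no common order of the libraries. Ly6e in B cells stood at 1168, 959, 1168 and 1386, lower with RvD1 in donor cells (-0.28) and higher in recipient cells (0.25). Samhd1 (264, 196, 227 and 231), Ifi27l2a (209, 174, 222 and 248) and Trim30a, a regulator of inflammatory signalling (86.0, 52.4, 64.5 and 67.8), were likewise lowest in RvD1 donor B cells, and Ddx58 (45.1, 31.1, 27.1 and 33.5) was lowest in vehicle recipient B cells. Fewer members could be described in these 2 classes, 13 and 17, so a low count here is not a measure of a smaller response, and the difference between classes was not tested. Dendritic cells of donor origin (221 and 135 cells) had 7 of 23 members at least 1.5-fold lower and 1 higher, where 8.3% of all genes were lower and 4.86% higher. Parp14 was lowest there (86.4 against 31.6, -1.45), and Ifih1 was the higher one (27.0 against 51.6, 0.93).

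Across the 6 classes 18 members were lower in both origins in at least 1 class. The shares over all genes given above are for single classes. How many of all genes were lower in at least 1 class, or in several, is not given. The counts across classes therefore have no share over all genes to be set against. Rsad2 and Dtx3l were lower in neutrophils and both monocyte classes, and Slfn8 in neutrophils, classical monocytes and T cells. Ifih1, Oasl2, Parp14 and Rtp4 were lower in 2 classes each, and the other 11 in 1. Rsad2, Slfn8, Ifih1 and Stat2 carry the promoter pattern, while Dtx3l and Oasl2 do not, so the genes lower with RvD1 included both kinds. With the genes whose promoters were not read left out, the pattern was in 2 of 5 of the genes lower in neutrophils, 4 of 6 in classical monocytes, 3 of 7 in nonclassical monocytes and 4 of 4 in T cells. These counts are small, and the pattern was in 17 of all 33 members read, so no link to the lower genes is drawn.

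The second comparison was between recipient and donor cells of the same treatment. In T cells 6 of 31 members were at least 1.5-fold higher in recipient cells with both vehicle and RvD1 and none was lower, where 1.33% of all genes were higher and 11.6% lower. Usp18 stood at 7.45, 5.22, 18.9 and 12.6 (1.34, 0.92 to 1.78, with vehicle and 1.27, 0.75 to 1.82, with RvD1). Ifit3 stood at 5.77, 4.94, 15.1 and 10.9 (1.39 and 1.15). Ifit1 had log2 ratios of 1.03 (0.80 to 1.27) and 1.71 (1.34 to 2.10). Both recipient libraries were above both donor libraries for these 3 genes. They were picked for being higher with both treatments, so this order only describes them. Rtp4 (0.89 and 1.19), Slfn5 (0.95 and 0.96) and Zbp1, a sensor of Z-form nucleic acid that can start cell death (0.67 and 1.10), completed the 6. In all 29 of 31 members were above 0 in both, with medians of 0.39 and 0.60, while all genes had -0.22 and -0.18. Ly6e was the only member below 0 with both treatments (-0.47 and -0.67).

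The T cells were not the same mixture between origins, nor between treatments in donor cells. The clusters whose leading genes included Igfbp4 with Cd4, or Dapl1 with Cd8b1, held 352, 171, 630 and 1394 cells. These were out of 976, 836, 791 and 1807 T cells. A cluster with Tnfrsf4, Ctla4 and Pdcd1 held 293, 234, 84 and 234. Ribosomal protein genes made up 22.6%, 27.7%, 33.9% and 35.7% of T cell UMIs. Without mitochondrial and ribosomal genes in the total, 14 members were higher instead of 6, where 3.55% of all genes were higher. The part of these differences in the origin result, or in the RvD1 result of T cells, was not tested.

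In classical monocytes 4 of 33 members were at least 1.5-fold higher in recipient cells with both treatments and none was lower, where 0.244% of all genes were higher and 0.774% lower. Rtp4 had log2 ratios of 1.002 (0.78 to 1.23) and 1.12 (0.86 to 1.37). Zbp1 stood at 78.7, 58.6, 151 and 108 (0.94, 0.76 to 1.12, and 0.88, 0.70 to 1.06). Slfn1 stood at 54.7, 61.3, 96.1 and 106 (0.81 and 0.79), and Slfn5 at 182, 122, 301 and 193 (0.72 and 0.66). For all 4 genes, picked for being higher with both treatments, both recipient libraries were above both donor libraries. With mitochondrial and ribosomal genes left out of the total, 7 members were counted, where 0.299% of all genes were higher. The medians were 0.43 and 0.42 against -0.05 and -0.07 over all genes, and 29 of 33 members were above 0 in both.

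The other classes had no member 1.5-fold higher or lower in recipient cells with both treatments. In neutrophils this was 0 of 39 members in each direction, where 3.83% of all genes were lower and 1.24% higher, with medians of -0.16 and 0.08. In nonclassical monocytes it was 0 of 25, where 0.229% were lower and 0.049% higher. In B cells it was 0 of 16 (0.698% and 0.152% over all genes), and in NK cells 0 of 18 (0.111% and 0.0%). Ifit3 in neutrophils was lower in recipient cells with vehicle (-0.85) and higher with RvD1 (1.66).

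**Figure D5:**
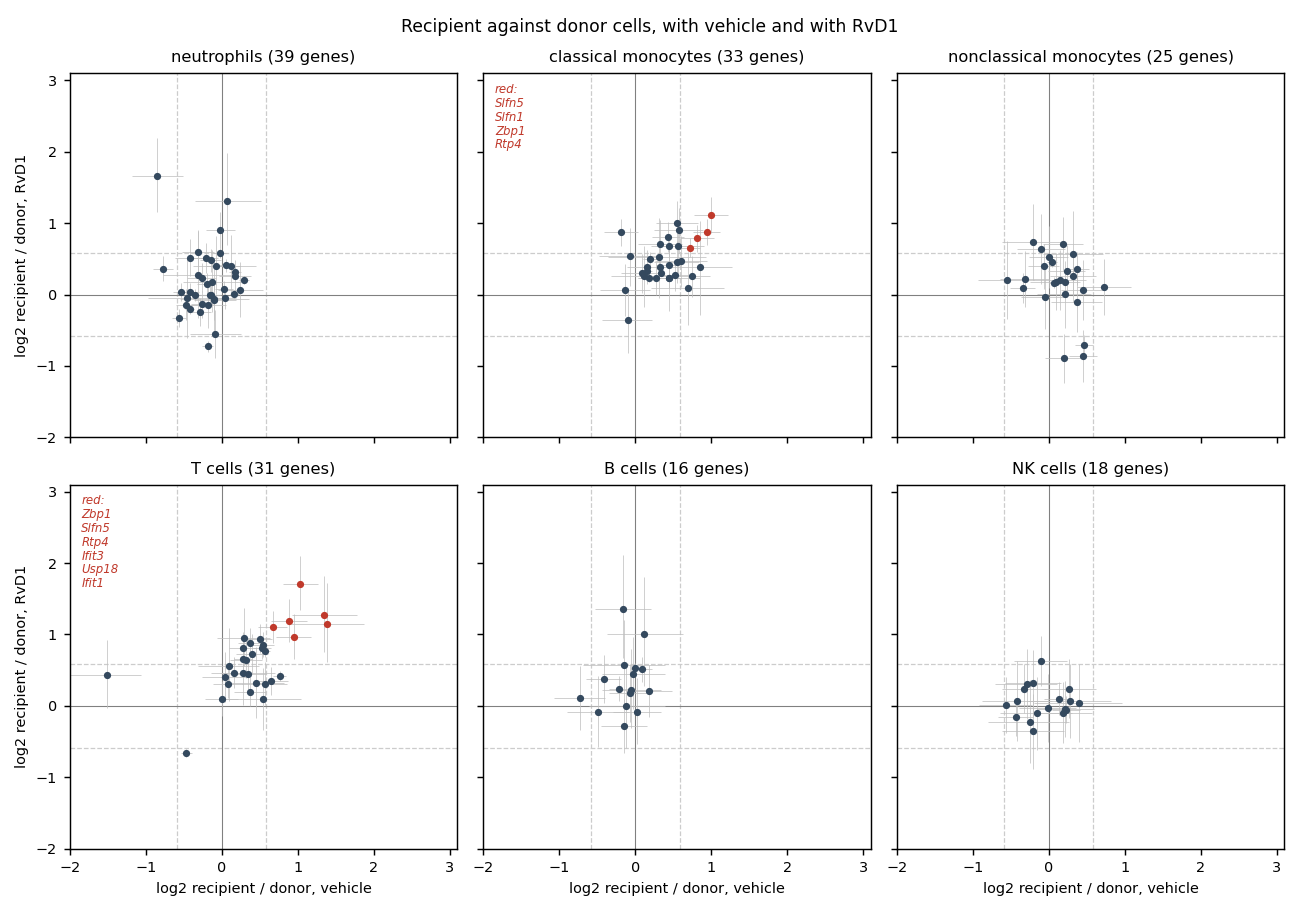
Log2 ratio of recipient to donor cells for each described member, with vehicle (x) and with RvD1 (y), drawn as in the RvD1 plot. Red genes are 4 in classical monocytes and 6 in T cells, all in the upper right, and the other 4 panels have none.

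The rest of the pathway was read from lists of genes that are not members. The ligands were almost absent: Ifnb1 had 2 UMIs, all in vehicle donor, and of 21 listed ligands only Ifng, interferon-gamma, had enough UMIs to be described (28.5, 34.03, 22.2 and 32.8 CPM in NK cells). In T cells Ifng stood at 21.6, 17.1, 2.72 and 3.07, lower in recipient than donor cells with both treatments (-2.99 and -2.47). Of 9 receptor and kinase genes, 1 was lower with RvD1 in neutrophils in both origins, Il10rb, and none higher. Over all genes, 9.31% were lower and 4.54% higher in neutrophils. Ifnar1 stood at 112, 139, 92.0 and 119 there and Ifnar2 at 253, 239, 214 and 208, so the receptor genes did not share the lower levels of Rsad2 and Slfn8. Of the transcription factors, Irf3 was higher with RvD1 in neutrophils in both origins (0.70 and 0.75). In classical monocytes Irf1, which switches on many interferon targets, was lower in both (99.99, 48.8, 76.0 and 48.5).

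Of 7 negative regulators in neutrophils, Socs1, which blocks Jak kinases, was lower with RvD1 (22.3, 9.90, 17.5 and 10.4). Of 7 upstream sensors and adaptors, Tlr4 was lower. Each is 1 gene of 7, where 9.31% of all genes were lower in both origins in neutrophils. Of the genes induced mainly by interferon-gamma, 5 of 9 were lower in both origins in neutrophils (Gbp2, Igtp, Irgm1, Nlrc5 and Tap1) and 5 of 8 in classical monocytes (Gbp2, Gbp5, Irgm1, Nlrc5 and Tap1), with none higher. Over all genes, 9.31% were lower and 4.54% higher in neutrophils, and 2.7% and 1.04% in classical monocytes. Nlrc5, the activator of class I antigen presentation genes, stood at 78.0, 21.99, 57.6 and 18.5 in neutrophils (-1.83 and -1.64). Gbp2, a GTPase of pathogen defence, stood at 40.5, 13.2, 77.2 and 21.2 in classical monocytes. In nonclassical monocytes 2 of 6 and in T cells 2 of 12 genes of that list were lower, with none higher. Over all genes, 5.08% were lower and 2.06% higher in nonclassical monocytes, and 1.96% and 1.1% in T cells. Which interferon acted on the cells was not tested.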

How the data were processed

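The 4 libraries, 1 per group, were made with the 10x 3' v3 kit, per the labels' protocols. The authors deposited raw UMI counts for each gene and barcode, made with Cell Ranger 7.0.1 (RvD1) or 6.1.1 (vehicle), per the file headers. The submitters' processing notes name mm10 and Seurat 4.0.0. Intron counting was not given in the sources used here. Barcodes with under 200 genes or over 10% mitochondrial UMIs were dropped, as were Scrublet doublets (1.34% to 3.65% per library). The 4 libraries were clustered together without integration (scanpy 1.11.5, 2000 variable genes, 30 components, Leiden resolution 1), and clusters were named from markers, at least 3 detected. Counts were summed per class and library. A ratio needed 100 cells and 100 UMIs and used no pseudocount. With 1 library per group no test was run. Members named by rule were, per class, up to 6 with the largest RvD1 ratio in both origins, up to 3 with the largest origin ratio, up to 2 of opposite sign and the 4 most abundant. The rest were named after their values were seen. Members and lists were chosen with earlier results of these data known. Scripts were tested on simulated data. One gene of the pathway lists is not reported here.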

Additional observations from a re-analysis of the deposited data

Results flagged for a closer look

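Up to 2 members per class were named by rule for RvD1 ratios that pointed opposite ways in donor and recipient cells. Members not named by that rule, such as Rtp4 in neutrophils, also had opposite signs and are not listed here. In 5 of the named cases the counting intervals of both origins excluded equal levels. These 5 differences rest on 1 library per group and were not tested. Ifit3 in neutrophils had a log2 ratio of -2.02 in donor and 0.49 in recipient cells, and 1 cell held 17.9% of its UMIs in vehicle donor. Irf7 in classical monocytes had -0.76 in donor and 0.29 in recipient cells. Ifi27l2a in nonclassical monocytes had 0.69 in donor and -0.49 in recipient cells. Ifitm3 in T cells had -1.41 in donor and 0.54 in recipient cells, and without the cell richest in Ifitm3 in each library the donor value was -0.37. Ly6e in B cells had -0.28 in donor and 0.25 in recipient cells.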

How the results depend on the processing

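With 1 library per group, intervals cover counting error only, and genes under 100 UMIs were not compared. No paired analysis was possible because each group was 1 library and the labels give no replicate numbers. Of the alternative values, 225 of 232 list medians, 220 of 228 member counts and 192 of 214 responding shares stayed close to those reported. Leaving out 1 cluster, or the cell richest in a gene, was chosen after seeing the data. The cause was not tested for any value below.

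With the median of all genes set to 0, members higher in recipient cells numbered 7 in classical monocytes and 13 in T cells, and the vehicle medians were -0.008 in neutrophils and 0.61 in T cells. Without mitochondrial and ribosomal genes the numbers were 7 and 14, the T cell median 0.64, and Ifitm3 in donor classical monocytes turned to 0.008. With 200 UMIs, 5 members were lower with RvD1 in classical and 4 in nonclassical monocytes, and with 50 UMIs 1 was lower in recipient nonclassical monocytes. With doublets kept, 1 was lower in recipient T cells, Ifitm3 in recipient classical monocytes was at 0.0 and Ifi27l2a in recipient nonclassical monocytes at 0.047. With each library clustered alone, no vehicle recipient cells were named classical monocytes, and recipient against donor nonclassical monocytes gave Ifi27l2a -0.27 (vehicle) and Ifitm3 -0.019 (vehicle) and -0.077 (RvD1). Means over cells put the neutrophil medians at -0.81 (RvD1, donor) and -0.36 (origin, vehicle). Subtracting the intron trend gave a recipient neutrophil median of -0.41 and Ifitm3 -0.038. Without 1 cluster, donor neutrophils had Isg15 -0.20 and Samhd1 -0.26, and the origin median with vehicle was -0.34. Without its richest cell Ifi27l2a in donor B cells was 0.012.

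For responding shares, 1000 UMIs gave, in points, -0.851 for recipient against donor classical monocytes with vehicle, -0.971 for RvD1 in donor nonclassical monocytes, and in T cells -0.427 (RvD1, recipient), 0.514 and 0.739 (origin, vehicle and RvD1). At 4000 UMIs the RvD1 values were -6.22, -6.33 and -4.76 in donor neutrophils, classical monocytes and T cells and -7.84 in recipient nonclassical monocytes, and the origin values -4.77 (neutrophils, vehicle), 4.17 (classical monocytes, RvD1) and 6.89 (T cells, RvD1). With at least 2 core genes they were -6.69, -7.63, -5.34 and 1.0 for RvD1 in donor neutrophils, classical monocytes, T cells and NK cells, and -4.74 (neutrophils, vehicle) and 6.14 (T cells, RvD1) for origin. With at least 4 they were -0.757 and -1.15 for RvD1 in recipient nonclassical monocytes and T cells, and 1.09 and 1.39 for origin in T cells.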

Other observations

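Other genes were also high in responding neutrophils. Of 4751 genes that are not members and had at least 30 UMIs in each library, 34 were at least 2-fold higher in the responding neutrophils of all 4 libraries, and 0 were at least 2-fold lower in all 4. Ddx60, a helicase of the RIG-I pathway, had log2 ratios of 3.51, 2.98, 3.34 and 3.05 in the library order used above. Rnf213, a large ubiquitin ligase, had 2.57, 2.79, 2.86 and 3.14. Trim34a, of the TRIM family, had 2.71, 2.70, 2.64 and 2.35. Irgm2, an immunity-related GTPase, had 2.66, 2.97, 2.34 and 2.68. These 4 genes were chosen from the 34 after their values were seen.

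A neutrophil cluster whose leading genes were Rsad2, Cmpk2, Oasl1 and Ifit1 held 96, 106, 213 and 200 cells. It contained 46.9%, 54.5%, 51.4% and 58.5% of the responding neutrophils, so a large share of them lay in other neutrophil clusters. Of its cells with at least 2000 UMIs, 82.4%, 74.5%, 76.5% and 70.1% were responding. Its leading genes are core genes that also call a responding cell, so this high share follows in part from the call.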
